A study of Mus musculus with 9 samples.

Results

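The 36 genes described here are those of Kupffer cells, the macrophages that live in the liver, and of macrophages and monocytes in general. They were chosen by symbol, with earlier results of these data known, and all 36 were found among the 22173 genes of the deposited expression table. They comprised 5 genes of resident Kupffer cells (Clec4f, Vsig4, Timd4, Cd5l, Marco), 4 genes of monocytes and lipid-associated macrophages (Ccr2, Ly6c2, Trem2, Gpnmb), 7 general macrophage genes, 5 scavenger and uptake receptors, 3 leukocyte integrins, 4 Fc receptors and ITAM adaptors, 3 lipid-handling genes, 2 phagosome membrane genes and 3 pan-leukocyte genes. The resident genes were set against the monocyte and lipid-associated ones in each library.

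PolyA RNA was sequenced from 9 mouse libraries in 3 groups of 3: bile duct ligation (BDL) plus senkyunolide A, BDL alone, and sham operation. BDL ties off the main bile duct, so that bile backs up into the liver, and senkyunolide A is a plant phthalide. The sources used here do not give the strain, sex, age, dose, route or time after surgery, or whether a group's libraries are of different mice, so the p-values measure only how far these libraries vary, which may be technical. Values are FPKM as computed by the authors, that is, fragment counts divided by transcript length and by the depth of the library.

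Kupffer cells sit inside the liver sinusoids, where they take up bacteria, dying cells and old red cells from the blood, and in mice they carry Clec4f, a lectin used as their marker. When they die or the liver is injured, blood monocytes that carry Ccr2 and Ly6c2 enter the tissue, mature into macrophages and can in time take on resident genes. Macrophages that clear lipid and debris are known for Trem2 and Gpnmb, and Trem2 signals through the adaptor Tyrobp to the kinase cascade shared with the Fc receptors.

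The labels call the source cholangiocyte, the epithelial cell of the bile ducts. Hepatocyte transcripts were abundant throughout, since 11 hepatocyte markers such as albumin made up between 8.30% and 14.1% of the summed FPKM of all genes in a library. The 11 biliary epithelium markers made up between 0.00482% and 0.120%. Of these 11, 3 were under 1 FPKM in all 9 libraries. Among the 3 was Cftr, a chloride channel that cholangiocytes make, at most 0.304 FPKM. The 36 macrophage genes made up between 0.0756% and 0.504%, and none of them was listed at 0 in any library. The values below are thus levels in a mixed liver RNA, in which fewer cells of a type and less RNA per cell cannot be told apart. Depth, estimated from the steps between low FPKM values, was between 27.3 and 33.8 M (mega) fragments per library. On the principal component that held 53.8% of the variance of all tested genes, the first library of BDL plus senkyunolide A lay at -16.9. The other libraries of that group lay at 26.7 and 40.04, the BDL libraries between 14.7 and 40.1, and the sham libraries between -49.6 and -37.5. Its effect on the fitted differences of its group is given where those are described.

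The macrophage genes as a set were higher after BDL. Their summed level was 980, 1314 and 1334 FPKM in the BDL libraries, against 464, 515 and 378 FPKM in sham. It was 664, 2241 and 2750 FPKM in BDL plus senkyunolide A, where the lowest of the 3 lay below every BDL library and the other two lay above. Lysozyme (Lyz2) alone gave between 14.5% and 34.5% of that sum. Without it the sums were 545, 1468 and 1914 FPKM in BDL plus senkyunolide A, 716, 1026 and 1093 FPKM in BDL and 397, 418 and 309 FPKM in sham, in the same order of libraries.

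**Figure D1:**
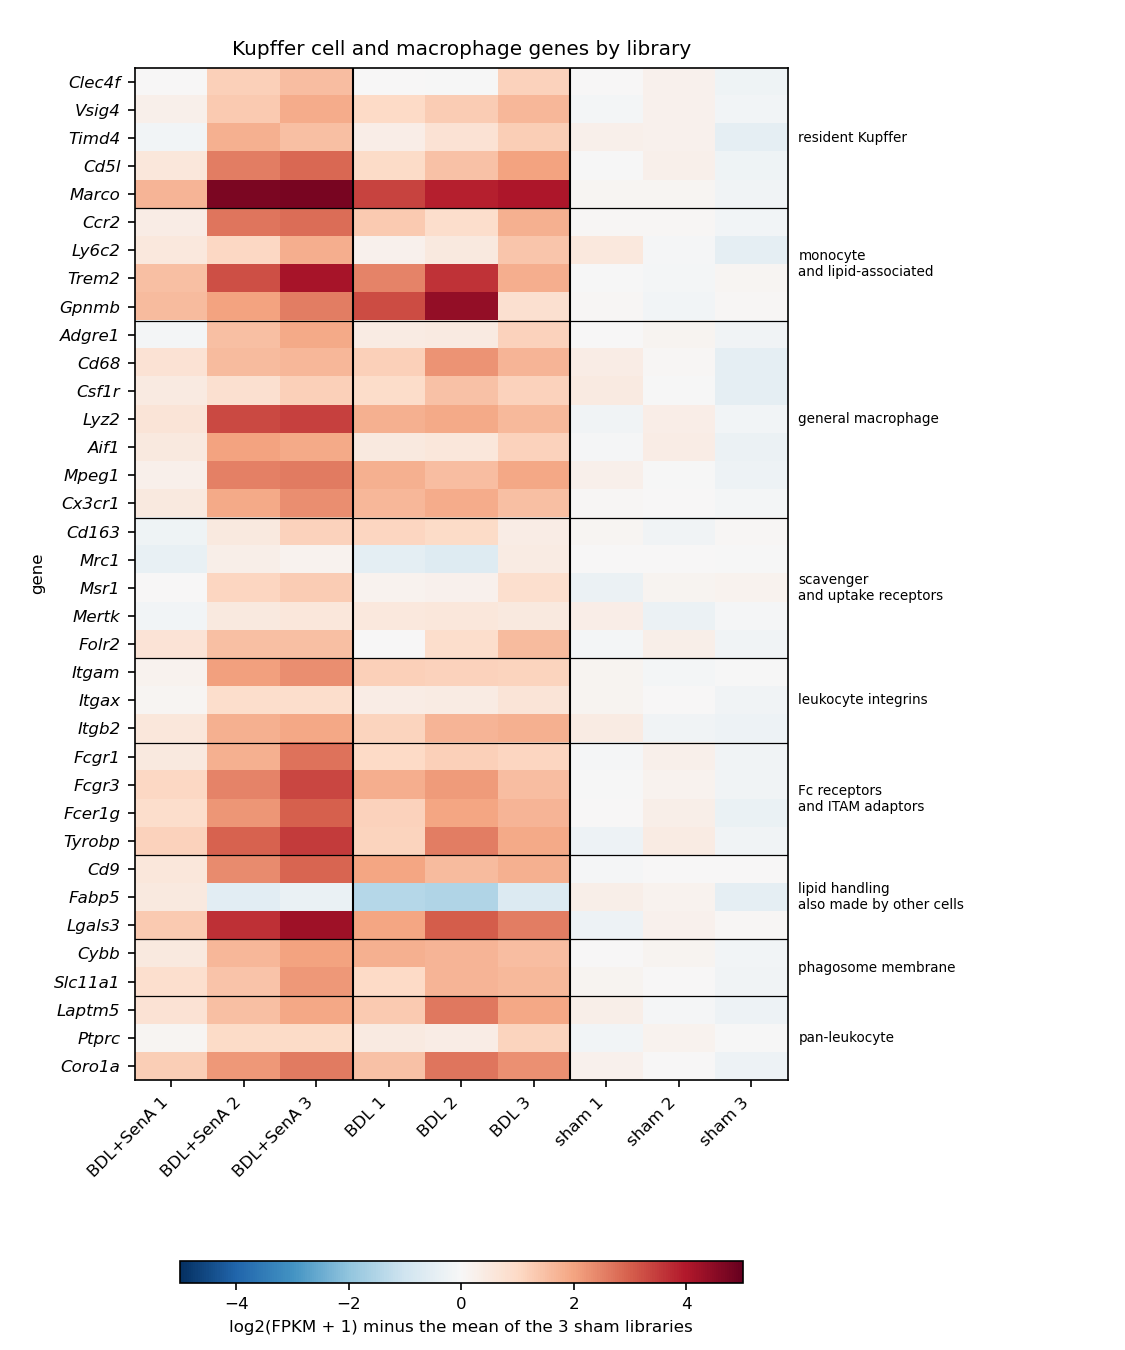
Each row is 1 of the 36 genes, grouped by role, and each column is 1 library, with BDL plus senkyunolide A (BDL+SenA) left, BDL in the middle and sham right. Colour gives log2(FPKM + 1) minus the mean of the 3 sham libraries, so red is higher than sham. Marco is the deepest red, Fabp5 is blue in the BDL libraries, and the first BDL plus senkyunolide A column is paler than the other two.

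In the comparison of BDL with sham, 17 of the 35 tested members rose and 1 fell, by limma on log2(FPKM + 1) with Benjamini-Hochberg adjustment over all tested genes and calls at an adjusted p under 0.05. Of all 9884 tested genes 11% were called, with 8.12% higher and 2.84% lower. The median difference of the tested members was 1.45 on the log2 scale, beside 0.15 over all tested genes. The untested member was Itgax, whose mean was 0.552 FPKM, under the minimum mean of 1 FPKM. Another 5 tested members (Ccr2, Trem2, Gpnmb, Cx3cr1 and Itgam) had a sham mean under 1 FPKM, so they entered the test through the groups in which they were higher. Without overlap between groups, 31 of the 36 members were higher in every BDL library than in every sham library and 1 was lower, beside 21.5% and 8.96% of all tested genes. Clec4f, Ly6c2, Mrc1 and Folr2 overlapped.

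The count of called members rested on single libraries, as did the calls over all tested genes. It was 2 without the second BDL library, beside 1.95% of all tested genes called. It was 2 without the second and 2 without the third sham library, beside 1.76% and 1.55%, and 10 without the first sham library, beside 14.3%. The members' median was between 1.36 and 1.48 in these fits. When genes of low level were kept, 4 of 36 members were called, beside 3.09% of all tested genes. Marco and Coro1a passed in the fit and in all 18 alternatives. The calls of Mpeg1, Vsig4, Fcer1g and Cd9 were the least stable, holding in 7, 8, 8 and 9 of 18 alternatives, and the other called members passed in between 11 and 15. Scaling also mattered for the table as a whole: 803 genes were higher and 281 lower as deposited, 524 and 502 after median-ratio scaling, and 507 and 488 after quantile normalization. Under these 2 scalings the all-gene median moved from 0.15 to -0.021 and -0.029. The members' median moved down as well, from 1.45 to 1.27 and 1.23. Under each scaling 13 members were higher and 1 lower, against 17 and 1 as deposited.

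Differences given by role below are BDL minus sham in log2(FPKM + 1), with ± for the standard error (SE), unless another pair is named. The 5 resident Kupffer genes differed widely. Marco, a scavenger receptor that binds bacteria and particles, had 10.9, 95.6 and 96.4 FPKM in BDL plus senkyunolide A, 36.9, 52.9 and 59.2 FPKM in BDL and 2.93, 2.93 and 2.22 FPKM in sham. Every BDL library was far above every sham library, and the BDL mean was 18.4-fold that of sham. On the log2 scale Marco rose by 3.76 ± 0.64 (limma adjusted p = 0.00776). Vsig4, a complement receptor that clears opsonised bacteria, had 36.4, 76.6 and 111 FPKM in BDL plus senkyunolide A, 60.1, 72.8 and 95.9 FPKM in BDL and 28.0, 35.2 and 27.4 FPKM in sham. It rose by 1.29 ± 0.36 in BDL against sham (limma adjusted p = 0.0411), a call that held in 8 of 18 alternatives.

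Clec4f, the lectin that marks mouse Kupffer cells, had 36.7, 83.9 and 109 FPKM in BDL plus senkyunolide A, 37.0, 36.3 and 83.6 FPKM in BDL and 37.0, 42.7 and 31.0 FPKM in sham. All but the third BDL library lay within the sham range, and the difference was 0.39 ± 0.41 with a 95% interval between -0.51 and 1.29 (limma adjusted p = 0.578). Timd4, a receptor for phosphatidylserine on dying cells, had 3.78, 17.3 and 13.8 FPKM in BDL plus senkyunolide A, 5.59, 7.80 and 11.5 FPKM in BDL and 5.23, 5.20 and 2.84 FPKM in sham. Its BDL and sham ranges nearly touched, and the difference of 0.76 ± 0.45 did not pass (limma adjusted p = 0.289). Cd5l, a secreted survival factor of macrophages also called AIM, had 79.7, 323 and 396 FPKM in BDL plus senkyunolide A, 106, 151 and 220 FPKM in BDL and 53.4, 63.8 and 45.6 FPKM in sham. The BDL libraries lay above all sham libraries, but 1.48 ± 0.51 did not pass either (limma adjusted p = 0.0853).

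Marco and Clec4f stood in different proportions. Marco was 0.296, 1.14 and 0.884 times Clec4f in BDL plus senkyunolide A, 0.997, 1.45 and 0.708 times in BDL, and 0.0791, 0.0686 and 0.0717 times in sham, per length in FPKM. All 6 ligated libraries lay above the 3 sham libraries, the first library of BDL plus senkyunolide A being lowest among them. The ratio of Vsig4 to Clec4f moved less, at 0.991, 0.913 and 1.02 in BDL plus senkyunolide A, 1.63, 2.0 and 1.15 in BDL and 0.757, 0.824 and 0.884 in sham.

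**Figure D2:**
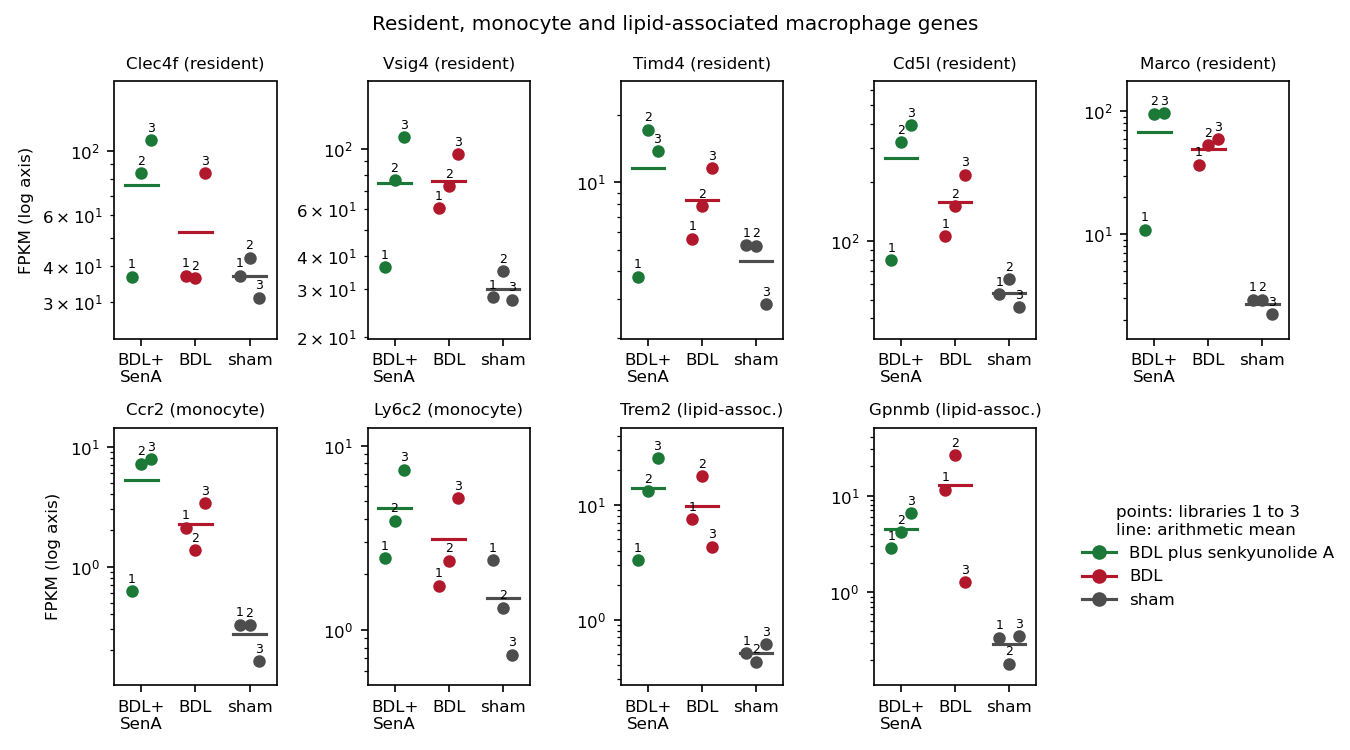
Points are FPKM on a log axis in libraries 1 to 3 of each group (BDL plus senkyunolide A green, BDL red, sham grey), and the line is the arithmetic mean. Marco, Trem2 and Gpnmb have no overlap between BDL and sham, Clec4f and Ly6c2 do, and the first BDL plus senkyunolide A library is the lowest of its group in all 9 panels.

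Among the monocyte genes, Ccr2, the receptor that draws monocytes out of marrow and into tissue, had 0.627, 7.17 and 7.83 FPKM in BDL plus senkyunolide A, 2.11, 1.36 and 3.37 FPKM in BDL and 0.329, 0.326 and 0.163 FPKM in sham. The BDL mean was 8.37-fold that of sham with no overlap, and the log2 difference of 1.32 ± 0.52 did not pass (limma adjusted p = 0.125). The offset of 1 FPKM shrinks the difference of a gene at this level. Ly6c2, a surface protein of inflammatory monocytes, had 2.44, 3.91 and 7.40 FPKM in BDL plus senkyunolide A, 1.74, 2.37 and 5.16 FPKM in BDL and 2.39, 1.31 and 0.730 FPKM in sham. Here the groups overlapped (0.69 ± 0.38, limma adjusted p = 0.263). Its near-identical neighbour Ly6c1 had means of 1.10 FPKM in BDL plus senkyunolide A, 0.953 FPKM in BDL and 0.148 FPKM in sham. The sources used here do not say how reads shared by both copies were counted.

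Trem2, a lipid receptor of phagocytes, had 3.29, 13.2 and 25.5 FPKM in BDL plus senkyunolide A, 7.54, 17.7 and 4.33 FPKM in BDL and 0.508, 0.428 and 0.607 FPKM in sham. All ligated libraries were above all sham libraries. Trem2 rose by 2.65 ± 0.58 in BDL against sham (limma adjusted p = 0.0194), and the BDL mean was 19.2-fold that of sham. Gpnmb, a lysosomal glycoprotein of lipid-laden phagocytes, had 2.88, 4.15 and 6.57 FPKM in BDL plus senkyunolide A, 11.5, 26.0 and 1.27 FPKM in BDL and 0.339, 0.183 and 0.354 FPKM in sham. It rose by 2.82 ± 0.67 (limma adjusted p = 0.0255), although the third BDL library was far below the other two. That library also had the lowest Trem2 and the highest Clec4f, Timd4, Cd5l, Ccr2 and Ly6c2 of the 3 BDL libraries. Trem2 and Gpnmb had sham means of 0.514 and 0.292 FPKM, so both entered the test through the groups in which they were higher.

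Promoter sequences of 4 of these genes are shown. Marco moved most and Clec4f least among the resident genes, and Trem2 and Gpnmb were the members that rose among the monocyte and lipid-associated genes. The windows are from RefSeq on GRCm38.p6, 250 bases before to 50 after the annotated start, read 5′ to 3′ on the gene's strand. Capitals mark GAGGAA or its reverse complement TTCCTC, the core letters of the site of PU.1, the myeloid transcription factor encoded by Spi1. The windows of Marco (chr1:120504975-120505274, minus strand), Clec4f (chr6:83656067-83656366, minus strand), Trem2 (chr17:48346151-48346450, plus strand) and Gpnmb (chr6:49036268-49036567, plus strand) read:
Marco: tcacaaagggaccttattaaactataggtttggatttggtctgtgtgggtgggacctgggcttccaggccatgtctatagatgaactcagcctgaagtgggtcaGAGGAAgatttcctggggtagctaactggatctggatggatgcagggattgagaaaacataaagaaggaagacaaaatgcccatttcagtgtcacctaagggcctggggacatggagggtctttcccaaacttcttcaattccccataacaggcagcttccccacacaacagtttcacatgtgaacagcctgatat
Clec4f: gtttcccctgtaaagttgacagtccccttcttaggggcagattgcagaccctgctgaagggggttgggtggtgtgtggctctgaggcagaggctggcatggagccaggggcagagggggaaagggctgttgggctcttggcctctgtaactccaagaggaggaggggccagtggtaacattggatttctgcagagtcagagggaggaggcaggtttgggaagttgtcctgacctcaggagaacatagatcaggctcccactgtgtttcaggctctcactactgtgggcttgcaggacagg
Trem2: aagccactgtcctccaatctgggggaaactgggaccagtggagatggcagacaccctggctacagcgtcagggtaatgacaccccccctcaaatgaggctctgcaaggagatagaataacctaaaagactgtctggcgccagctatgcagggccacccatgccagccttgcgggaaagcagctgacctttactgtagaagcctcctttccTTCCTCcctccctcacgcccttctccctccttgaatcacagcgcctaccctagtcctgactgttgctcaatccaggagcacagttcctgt
Gpnmb: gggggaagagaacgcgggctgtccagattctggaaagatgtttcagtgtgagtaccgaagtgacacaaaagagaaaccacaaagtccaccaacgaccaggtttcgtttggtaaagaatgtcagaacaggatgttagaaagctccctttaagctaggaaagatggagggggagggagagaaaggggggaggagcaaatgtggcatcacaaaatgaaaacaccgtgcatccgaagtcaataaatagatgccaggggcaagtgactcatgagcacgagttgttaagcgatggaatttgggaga

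Marco held the letters on its own strand with the first base 146 bases before the start, and Trem2 held the reverse complement 40 bases before it. Clec4f and Gpnmb held neither. Of the 2 monocyte genes whose windows are not printed, Ccr2 held neither and Ly6c2 held the letters. Of the 36 members, 30 had a window in the RefSeq table, and 15 of these 30 held the letters on either strand. By window, 17 of 35 (48.6%) held them, beside 28.3% of all 32851 windows of the same length. The E-box CACGTG, which reads the same on both strands, was in 0 of 35 member windows and in 7.15% of all windows. Matches are descriptions of letters and not of bound sites. Adgre1, Csf1r, Fabp5, Itgb2, Msr1 and Tyrobp were not matched.

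The balance of resident against monocyte and lipid-associated genes was given per library. The 5 resident genes summed to 167, 596 and 726 FPKM in BDL plus senkyunolide A, 245, 320 and 470 FPKM in BDL and 127, 150 and 109 FPKM in sham. The 4 others summed to 9.24, 28.4 and 47.3 FPKM, 22.9, 47.4 and 14.1 FPKM, and 3.57, 2.25 and 1.85 FPKM in the same groups and order. The resident sum was thus the larger in every library, but sums over different genes do not show which cells were more numerous. Ccr2, Trem2 and Gpnmb had sham means under 1 FPKM, so the sham ratios that follow have a small denominator. The ratio of the 2 sums was 18.1, 21.0 and 15.3 in BDL plus senkyunolide A, 10.7, 6.76 and 33.3 in BDL and 35.5, 66.5 and 58.9 in sham, so every sham library had a higher ratio than any ligated one, and the third BDL library came nearest to sham. As mean log2(FPKM + 1), resident minus the others, the groups were not separated: 2.89, 3.48 and 3.08 in BDL plus senkyunolide A, 2.72, 2.52 and 3.98 in BDL, and 3.30, 3.66 and 3.27 in sham. The difference between BDL and sham was -0.33 with an offset of 1 FPKM, -0.69 with 0.5 FPKM and -1.28 with 0.1 FPKM. With 1 gene left out at a time it lay between -0.89 without Marco and -0.016 without Gpnmb.

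**Figure D3:**
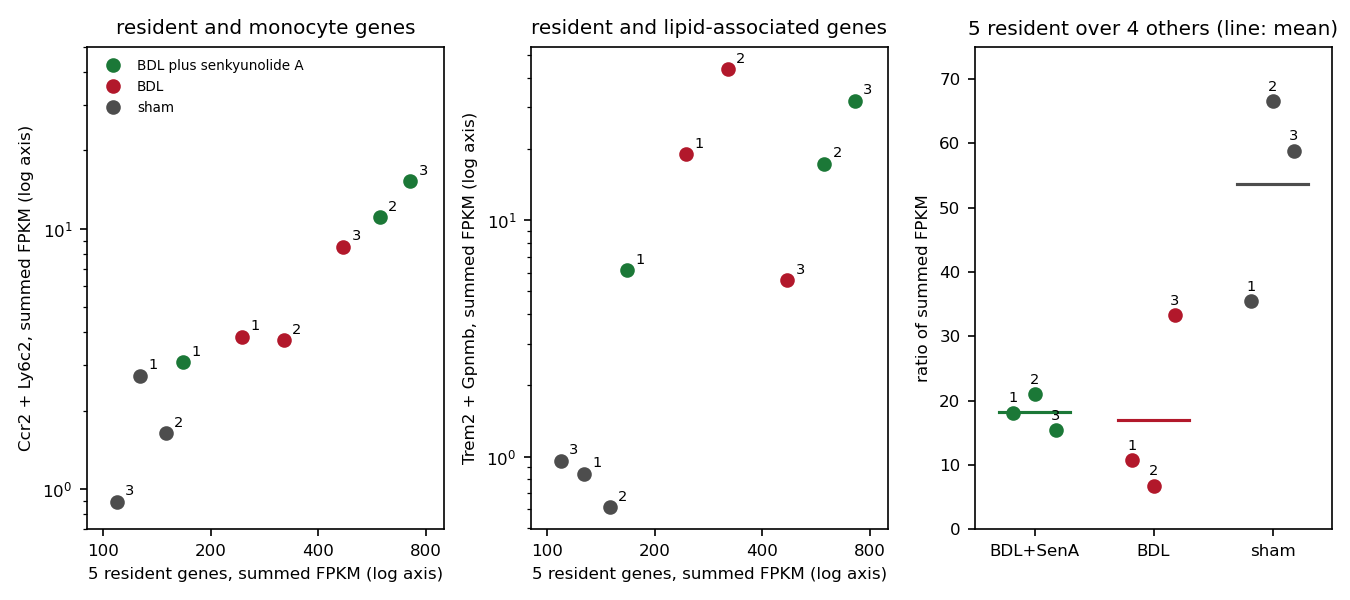
The left and middle panels plot the summed FPKM of the 5 resident genes against Ccr2 plus Ly6c2 and against Trem2 plus Gpnmb, both on log axes, with libraries numbered within groups. The right panel gives the ratio of the 5 resident genes to the 4 others, with the mean as a line: sham lies between 35.5 and 66.5, above all ligated libraries.

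Of the 7 general macrophage genes, 4 rose in BDL, beside 8.12% of all tested genes called higher. Cd68, a lysosomal glycoprotein of macrophages, had 15.8, 28.9 and 30.7 FPKM in BDL plus senkyunolide A, 22.3, 46.7 and 32.1 FPKM in BDL and 12.1, 9.63 and 6.43 FPKM in sham. It rose by 1.72 ± 0.34 in BDL against sham (limma adjusted p = 0.0138), with no overlap. Cx3cr1, the fractalkine receptor of patrolling monocytes and of some macrophages, had 0.546, 3.16 and 4.50 FPKM in BDL plus senkyunolide A, 2.51, 3.05 and 2.12 FPKM in BDL and 0.147, 0.131 and 0.0390 FPKM in sham. Its BDL mean was 24.3-fold that of sham, on levels near 0 in sham, and it rose by 1.68 ± 0.37 on the offset log2 scale (limma adjusted p = 0.0194). With a sham mean of 0.105 FPKM, Cx3cr1 entered the test through the groups in which it was higher.

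Csf1r, the receptor for the growth factors Csf1 and Il34 on which macrophages depend, and Mpeg1, a pore-forming protein of phagocytes, also rose, by 1.19 ± 0.29 and 1.75 ± 0.50 (limma adjusted p = 0.0265 and 0.0461). The call of Csf1r held in 14 of 18 alternatives and that of Mpeg1 in 7. Exons of Csf1r overlap those of Hmgxb3 on the opposite strand over 873 bases, and the sources used here do not say whether the counting used strand. The other three did not pass: Lyz2, the lysozyme of macrophages and neutrophils, Aif1, an actin-binding protein also called IBA1, and Adgre1, which encodes F4/80. Their differences were 1.77, 0.73 and 0.67 with limma adjusted p between 0.0771 and 0.333. All 3 genes were higher in every BDL than in every sham library, as were 21.5% of all tested genes. Lyz2 had 120, 772 and 836 FPKM in BDL plus senkyunolide A, 264, 287 and 241 FPKM in BDL and 67.5, 96.4 and 69.3 FPKM in sham, and was the most abundant member in every library except the first sham library, where Fabp5 was.

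The scavenger and uptake receptors moved least. Of Cd163, the haemoglobin receptor, Mrc1, the mannose receptor that liver endothelium also makes, Msr1, a receptor for modified lipoproteins, Mertk, a kinase receptor for dying cells, and Folr2, a folate receptor, 0 of 5 passed in BDL against sham. At an unadjusted limma p under 0.05 the count was 3, beside 28.6% of all tested genes. Cd163 had 2.81, 5.19 and 8.92 FPKM in BDL plus senkyunolide A, 8.37, 7.67 and 4.68 FPKM in BDL and 3.79, 2.93 and 3.64 FPKM in sham. Mertk had 2.01, 3.61 and 3.90 FPKM in BDL plus senkyunolide A, 3.77, 3.96 and 3.63 FPKM in BDL and 3.19, 1.73 and 2.18 FPKM in sham. Both were without overlap between BDL and sham, at differences of 0.80 ± 0.32 and 0.53 ± 0.23. The group's differences lay between -0.24 for Mrc1 and 0.83 for Folr2, with a median of 0.53. Mrc1 had 9.03, 7.86 and 17.7 FPKM in BDL, against 13.0, 13.1 and 12.8 FPKM in sham, so that 1 BDL library lay above and the others below.

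Among the leukocyte integrins, Itgb2, the beta chain shared by the leukocyte integrins, had 4.27, 11.2 and 12.8 FPKM in BDL plus senkyunolide A, 6.79, 10.6 and 11.3 FPKM in BDL and 3.80, 2.15 and 2.0 FPKM in sham. It rose by 1.54 ± 0.36 (limma adjusted p = 0.0232). Its partner Itgam, the CD11b chain of macrophages, monocytes and neutrophils, had 0.348, 3.92 and 4.88 FPKM in BDL plus senkyunolide A, 1.68, 1.65 and 1.58 FPKM in BDL and 0.283, 0.105 and 0.156 FPKM in sham. The BDL libraries were close together and clear of sham, and 1.16 ± 0.43 did not pass (limma adjusted p = 0.104). Itgax, the CD11c chain of dendritic cells and of some macrophages, was between 0.499 and 0.849 FPKM in BDL and between 0.0423 and 0.284 FPKM in sham.

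The Fc receptors and their adaptors all lay higher in every BDL than in every sham library, as did 21.5% of all tested genes. Fcgr3, a low-affinity IgG receptor, had 6.43, 19.3 and 35.6 FPKM in BDL plus senkyunolide A, 11.6, 14.7 and 9.55 FPKM in BDL and 2.58, 3.07 and 2.17 FPKM in sham. It rose by 1.83 ± 0.45 (limma adjusted p = 0.0282). Fcer1g, the adaptor chain of these receptors, had 26.8, 69.1 and 119 FPKM in BDL plus senkyunolide A, 32.7, 58.1 and 48.0 FPKM in BDL and 14.4, 17.4 and 11.1 FPKM in sham. It rose by 1.61 ± 0.44 (limma adjusted p = 0.0410), a call that held in 8 of 18 alternatives. Tyrobp, the adaptor of Trem2, and Fcgr1, the high-affinity IgG receptor, fell short of the threshold at 1.86 ± 0.54 and 1.09 ± 0.43 (limma adjusted p = 0.0502 and 0.120).

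Of the 3 lipid-handling genes, which other liver cells also make, 2 rose and 1 fell, beside 8.12% and 2.84% of all tested genes. Lgals3, the sugar-binding galectin-3, had 9.82, 53.6 and 80.6 FPKM in BDL plus senkyunolide A, 16.3, 34.2 and 24.9 FPKM in BDL and 2.68, 4.01 and 3.48 FPKM in sham. It rose by 2.53 ± 0.59 (limma adjusted p = 0.0239). Cd9, a tetraspanin, had 28.3, 102 and 147 FPKM in BDL plus senkyunolide A, 77.4, 58.6 and 66.8 FPKM in BDL and 18.3, 19.2 and 19.2 FPKM in sham, and rose by 1.78 ± 0.46 (limma adjusted p = 0.0346), a call that held in 9 of 18 alternatives. Both were clear of sham in all BDL libraries. Fabp5, a fatty acid binding protein, is named because it was the member that fell. It had 24.4, 23.3 and 42.0 FPKM in BDL, against 83.5, 76.0 and 48.9 FPKM in sham, and fell by 1.205 ± 0.33 on the log2 scale (limma adjusted p = 0.0405), a call that held in 11 of 18 alternatives.

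Both phagosome membrane genes rose, beside 8.12% of all tested genes called higher. Cybb, the catalytic chain of the NADPH oxidase that makes superoxide, had 5.08, 13.0 and 16.7 FPKM in BDL plus senkyunolide A, 14.0, 13.2 and 11.8 FPKM in BDL and 3.47, 3.78 and 2.93 FPKM in sham (1.67 ± 0.33 for BDL against sham, limma adjusted p = 0.0142). Slc11a1, a metal ion pump of the phagosome, had 5.29, 8.34 and 14.8 FPKM in BDL plus senkyunolide A, 6.06, 10.5 and 9.92 FPKM in BDL and 2.88, 2.56 and 2.14 FPKM in sham (1.45 ± 0.32, limma adjusted p = 0.0192). Neither gene overlapped between BDL and sham. The pan-leukocyte genes Coro1a, an actin-binding protein, and Laptm5, a lysosomal membrane protein, rose as well. Coro1a had 6.57, 13.8 and 18.6 FPKM in BDL plus senkyunolide A, 8.03, 19.9 and 15.0 FPKM in BDL and 2.77, 2.33 and 1.77 FPKM in sham (2.15 ± 0.37, limma adjusted p = 0.00816). Laptm5 had 12.1, 21.4 and 28.9 FPKM in BDL plus senkyunolide A, 18.3, 47.9 and 29.0 FPKM in BDL and 8.58, 6.56 and 5.64 FPKM in sham (1.96 ± 0.37, limma adjusted p = 0.0117). Ptprc, the CD45 phosphatase of all leukocytes, did not pass at 0.64 ± 0.28 (limma adjusted p = 0.151).

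**Figure D4:**
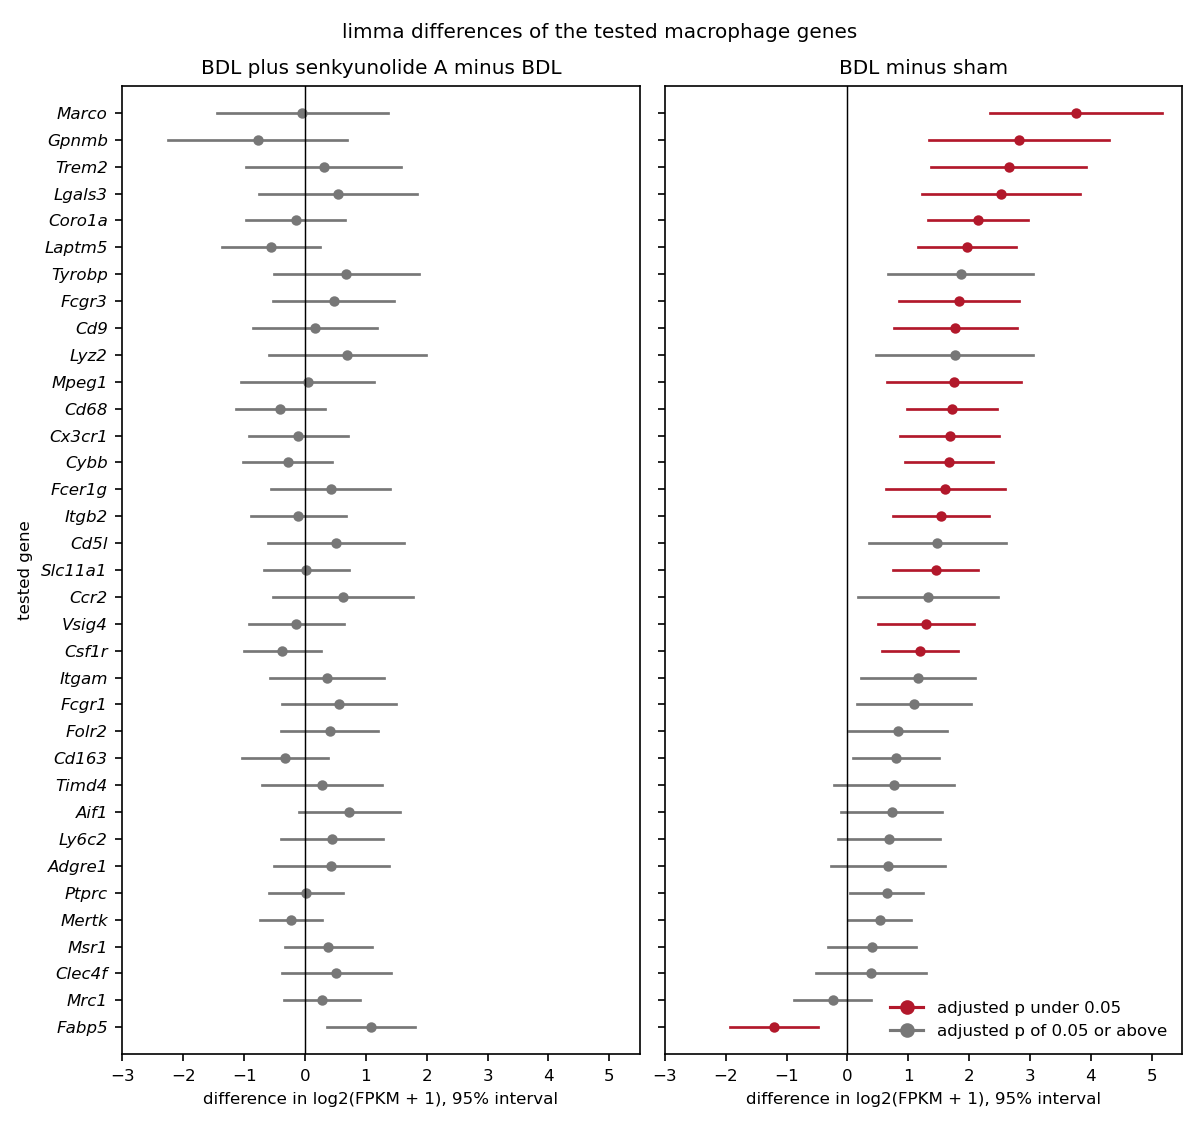
Points are the fitted differences in log2(FPKM + 1) of the 35 tested members and bars their 95% intervals, for BDL plus senkyunolide A minus BDL (left) and BDL minus sham (right). Red marks an adjusted p under 0.05. On the right 17 genes are red above 0 and Fabp5 is red below 0, while on the left no gene is red and all intervals but that of Fabp5 cross 0.

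BDL plus senkyunolide A was compared with BDL to ask what the compound changed in ligated mice. By limma 0 of the 35 tested members passed, beside 0.0101% of all tested genes (1 gene), and at an unadjusted p under 0.05 there was 1 member, Fabp5, beside 12.3% of all tested genes. Fabp5 had 94.4, 46.8 and 54.1 FPKM in BDL plus senkyunolide A, against 24.4, 23.3 and 42.0 FPKM in BDL. It was the one member higher in every library of BDL plus senkyunolide A than in every BDL library, beside 3.25% of all tested genes, and its difference was 1.08 ± 0.33 (limma adjusted p = 0.407). The median difference of the tested members was 0.28, beside -0.12 over all tested genes. The intervals were wide. For Marco the difference was -0.046 with a 95% interval between -1.45 and 1.36, for Clec4f 0.52 between -0.39 and 1.42, for Trem2 0.31 between -0.97 and 1.59, and for Gpnmb -0.78 between -2.25 and 0.70.

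The libraries of BDL plus senkyunolide A did not agree among themselves. The first was below every BDL library for 29 of the 36 members and above every sham library for 26. The second was above every BDL library for 20 members and the third for 27. For 20 members both of these were above every BDL library, and for 17 of these the first was below every BDL library. No share over all tested genes was computed for these counts, so they do not set the macrophage genes apart from other genes. The first library also lay apart on the principal component of all tested genes, at -16.9 against 26.7 and 40.04. The median coefficient of variation over the members was 55.0% in BDL plus senkyunolide A, 30.6% in BDL and 21.8% in sham.

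Without the first library of BDL plus senkyunolide A, 36 of the 9884 tested genes were called higher than in BDL and 17 lower (0.536% in all). Among the tested members 3 were higher. They were Lyz2 at 1.61 (limma adjusted p = 0.0281), Ccr2 at 1.42 (limma adjusted p = 0.0403) and Itgam at 1.03 (limma adjusted p = 0.0402), and the median of the tested members was 0.78. Ccr2 and Itgam had sham means of 0.273 and 0.182 FPKM and BDL means of 2.28 and 1.63 FPKM. Both thus entered the test through the groups in which they were higher. In that fit Gpnmb was at -0.55 (limma adjusted p = 0.663), Marco at 0.96 (limma adjusted p = 0.0786), Clec4f at 0.97 (limma adjusted p = 0.136), Trem2 at 1.03 (limma adjusted p = 0.186) and Fabp5 at 0.78 (limma adjusted p = 0.1595). The median was 0.10 without the second library of the same group and -0.060 without the third. The summed neutrophil markers given below, most of it S100a8 and S100a9, were also lower in that first library than in the other two. Ngp, Ltf and Mpo, each under 1 FPKM in that group, were highest there, and Ly6g, Camp and Elane lay between the other two. The part of neutrophils in these values was not tested.

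BDL plus senkyunolide A and sham were compared in the same fit, and the 3 comparisons share libraries, so their values are only set side by side. Here 8 of the 35 tested members rose and 0 fell (2.17% of all tested genes called, 1.76% higher). They were Marco, Trem2, Fcgr3, Fcer1g, Tyrobp, Lgals3, Slc11a1 and Coro1a. Of these, Trem2 had a sham mean of 0.514 FPKM and entered the test through the groups in which it was higher. The median was 1.46, beside 0.036 over all tested genes, and 25 of 36 members were higher without overlap, beside 17.5% of all tested genes. For Marco the rise was 3.71 ± 0.64 with senkyunolide A and 3.76 ± 0.64 without, each against sham. For Trem2 it was 2.96 ± 0.58 with senkyunolide A and 2.65 ± 0.58 without. When the first library of BDL plus senkyunolide A was left out, the rise with senkyunolide A was 4.72 ± 0.24 for Marco and 3.68 ± 0.44 for Trem2, and Clec4f passed at 1.36 ± 0.34 (limma adjusted p = 0.0189). The count of members that rose was 30 without that library, beside 1214 of 9884 tested genes called higher and 592 lower (18.3% in all). It was 0 without the second or the third library of that group, or without any single sham library. In those fits at most 0.0506% of all tested genes were called.

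Other genes of the same pathways were read from the same fit, and each count of genes that rose in BDL against sham stands beside 8.12% of all tested genes called higher. Of the transcription factors of macrophages, 4 of 10 tested rose in BDL against sham. Spi1, which encodes PU.1, had 6.38, 12.1 and 13.3 FPKM in BDL plus senkyunolide A, 8.06, 24.3 and 14.6 FPKM in BDL and 4.30, 2.86 and 2.22 FPKM in sham (1.92 ± 0.38 for BDL against sham, limma adjusted p = 0.0139). Irf8, a factor of the monocyte lineage, and Spic, a factor of iron-recycling macrophages, were among them and rose by 1.01 and 0.88 (limma adjusted p = 0.0285 and 0.0451). Of the ligands, 3 of 4 tested genes for Csf1r ligands and monocyte attractants rose: Ccl6 by 2.51 ± 0.66, Ccl9 by 1.52 ± 0.39 and the growth factor Csf1 by 0.98 ± 0.23 (limma adjusted p = 0.0347, 0.0322 and 0.0248). Csf1 had 3.83, 3.95 and 4.55 FPKM in BDL, against 1.70, 1.45 and 1.64 FPKM in sham.

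Complement C1q, which macrophages make in the liver, rose in all 3 chains: C1qb by 1.87 ± 0.43, C1qc by 1.60 ± 0.47 and C1qa by 1.51 ± 0.35 (limma adjusted p = 0.0231, 0.0492 and 0.0231). C1qb had 113, 280 and 138 FPKM in BDL, against 42.8, 51.7 and 38.3 FPKM in sham. The partners of Cybb in the NADPH oxidase rose in 5 of 5 cases, with Cyba, the membrane partner, at 2.23 ± 0.42, and Ncf1 and Ncf4, cytosolic subunits, at 1.33 and 1.05 (limma adjusted p = 0.0122, 0.0344 and 0.0313). Of the ITAM signalling genes, a list of kinases, phosphatases and other effectors together with Fc receptors and lectin receptors, 4 of 11 tested rose, among them the lectin receptor Clec7a by 2.08, the kinase Fgr by 1.36 and the exchange factor Vav1 by 1.16 (limma adjusted p = 0.0182, 0.0290 and 0.00996).

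The lysosome and lipid genes of phagocytes held the largest changes of these lists. In BDL against sham 6 of 12 were higher and 1 lower, beside 8.12% and 2.84% of all tested genes. Atp6v0d2, a proton pump subunit, had 2.41, 8.07 and 12.4 FPKM in BDL plus senkyunolide A, 19.3, 15.4 and 6.54 FPKM in BDL and 0.414, 0.267 and 0.180 FPKM in sham (3.40 ± 0.47 for BDL against sham, limma adjusted p = 0.00374). Cd63, a tetraspanin of late endosomes, had 16.0, 47.1 and 68.5 FPKM in BDL plus senkyunolide A, 31.7, 43.4 and 24.0 FPKM in BDL and 2.45, 3.18 and 1.79 FPKM in sham (3.27 ± 0.44, limma adjusted p = 0.00348). Neither gene overlapped between ligated and sham libraries. Atp6v0d2 had a sham mean of 0.287 FPKM, under the minimum mean of 1 FPKM, so it entered the test through the groups in which it was higher. The same held for Ncf4, Fgr and Vav1 above and for Ccl2 below. Lpl, lipoprotein lipase, and Ctsl, a lysosomal protease, rose by 2.16 and 1.39 (limma adjusted p = 0.0117 and 0.0142). Plin2, the coat protein of lipid droplets, is named because it was the one that fell, by 1.29 ± 0.36 (limma adjusted p = 0.0430). In BDL plus senkyunolide A against BDL, 0 genes passed in each of these 6 lists, beside 0.0101% of all tested genes. At an unadjusted limma p under 0.05 there was 1, beside 12.3% of all tested genes: Fcgr2b, an inhibitory IgG receptor, named after its value was seen (1.303 ± 0.44, adjusted p = 0.407). Without the first library of BDL plus senkyunolide A, 36 of all 9884 tested genes were called higher than in BDL. Of the 45 tested genes of these lists 2 were higher. They were Ccl2, a chemokine that draws monocytes, with a difference of 1.96, and Clec4n, the lectin receptor Dectin-2, with 1.55 (limma adjusted p = 0.0317 and 0.0403), both named after their values were seen. Several of these genes are also made by other liver cells, so the lists do not isolate macrophages.

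Markers of other cells moved in the same libraries. The 12 neutrophil markers summed to 18.8, 106 and 97.4 FPKM in BDL plus senkyunolide A, 40.6, 54.1 and 66.4 FPKM in BDL and 3.01, 6.53 and 4.74 FPKM in sham. Of the 4 tested, S100a8, S100a9 and Retnlg rose in BDL against sham, by 3.06, 2.84 and 1.61 (limma adjusted p = 0.0138, 0.0112 and 0.0297). Of all tested genes 8.12% were called higher. Ly6g, Retnlg and Camp were listed at 0 in all 3 sham libraries, so Retnlg entered the test through the ligated libraries. Of the 12 markers, 5 were under 1 FPKM in all 9 libraries, Ly6g being at most 0.130 FPKM. Itgam, Itgb2, Lyz2, Fcer1g, Tyrobp and Coro1a are also known from neutrophils. The part of neutrophils in the rise of these members was not tested.

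The 7 dendritic cell markers summed to 2.39, 6.10 and 5.24 FPKM in BDL plus senkyunolide A, 3.81, 2.99 and 3.81 FPKM in BDL and 2.27, 2.29 and 1.85 FPKM in sham, with 5 of 7 under 1 FPKM in every library. The 10 lymphocyte markers summed to between 2.23 and 7.27 FPKM in BDL plus senkyunolide A, between 4.46 and 13.3 FPKM in BDL and between 2.26 and 6.90 FPKM in sham. Markers of liver endothelium and of stellate cells and fibroblasts ran lowest in the first 2 BDL libraries. The 9 stellate cell and fibroblast genes summed to 108, 258 and 152 FPKM in BDL plus senkyunolide A, 23.6, 33.7 and 125 FPKM in BDL and 78.4, 114 and 99.0 FPKM in sham, and the 8 endothelial genes to 110, 176 and 136 FPKM, 47.2, 59.1 and 134 FPKM, and 109, 105 and 93.2 FPKM. The third BDL library, with the highest stellate, endothelial and biliary sums of its group, was the one with high Clec4f and Mrc1 and low Gpnmb. The part of cell makeup in these differences was not tested. The 11 biliary markers summed to 55.5, 383 and 411 FPKM in BDL plus senkyunolide A, 129, 87.6 and 583 FPKM in BDL and 39.2, 33.0 and 24.2 FPKM in sham, most of it Spp1, which macrophages can make too.

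**Figure D5:**
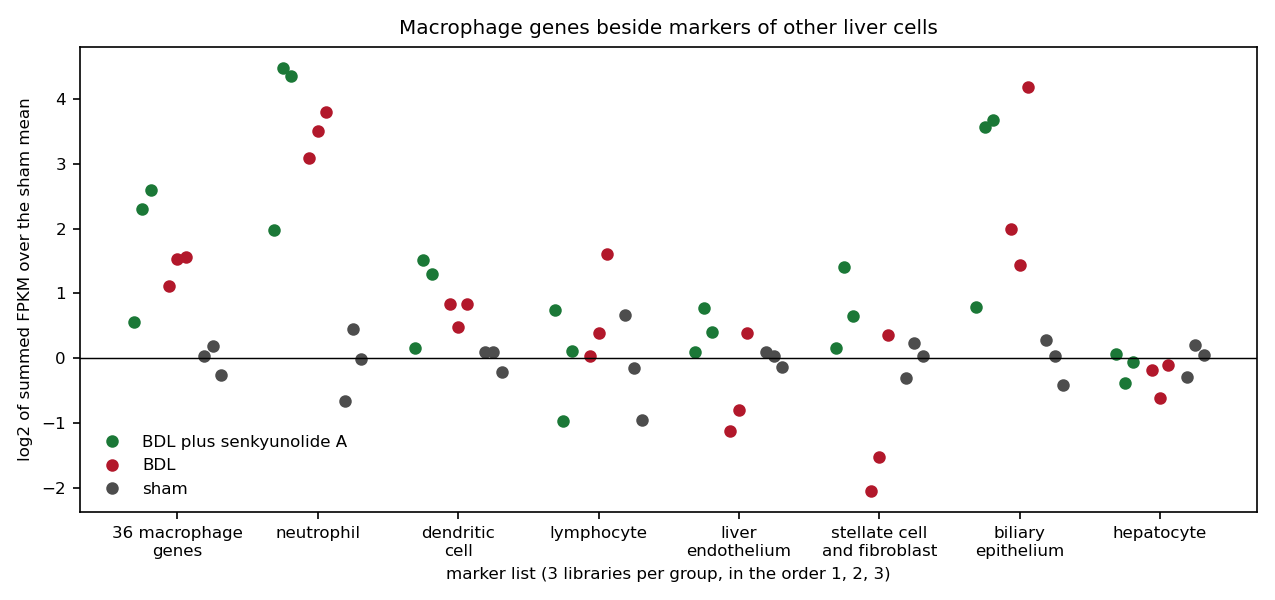
Points are the log2 of the summed FPKM of a marker list in a library over the mean sum of the 3 sham libraries, in the order 1, 2, 3 within a group (BDL plus senkyunolide A green, BDL red, sham grey). The 36 macrophage genes and the neutrophil, dendritic cell and biliary markers lie above sham in all 6 ligated libraries. Among the ligated libraries, each of these lists is lowest in the first BDL plus senkyunolide A library. The hepatocyte sum is lowest in the second BDL library, at 41890 FPKM against a sham mean of 63857 FPKM. It is highest in the second sham library, at 73190 FPKM.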

How the data were processed

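The deposited values were FPKM of 22173 gene symbols in 9 libraries, computed by the authors. Per the labels' protocols, TRIzol RNA was turned into polyA libraries with the NEBNext Ultra kit. The tools, per the submitters' processing notes, were HISAT2 2.0.5, featureCounts 1.5.0-p3, DESeq2 1.20.0, CASAVA 1.8 and fastp, on GRCm38 (mm10). The sources used here do not give settings, annotation or strand use. FPKM depend on all other genes of a library, so other scalings were tried.

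Libraries were grouped by title. The 9884 genes with a mean of at least 1 FPKM entered a limma fit (version 3.58.1, R 4.3.3) on log2(FPKM + 1), with 1 mean per group over all 9 libraries, empirical Bayes with a trend, and two-sided p adjusted by Benjamini-Hochberg over all tested genes. An offset of 1 FPKM understates changes of low genes. The script was checked on simulated data. Counts were not recovered: at the estimated depth, between 30.1% and 34.8% of 442 to 519 low genes per library were whole within 0.02 of a fragment, so no count model was used. Within groups r was between 0.921 and 0.993, and no libraries were merged. Summaries used Python 3.11.15 and pandas 2.3.3.

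Members and lists were chosen with earlier results of these data known. The 9 genes of the resident comparison, and up to 2 per role with the smallest p in BDL against sham, are given per library; up to 4 of each pathway list that passed are named. Some genes that this rule takes in are not reported here. Alternatives changed the offset, the filter, the scaling, the groups fitted, the variance trend, the replicate block and each library in turn. Leaving out libraries for the resident balance, and the first library of BDL plus senkyunolide A for the pathway lists, was added after seeing the data.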

Additional observations from a re-analysis of the deposited data

How the results depend on the processing

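In BDL against sham, the median difference of the tested members was 1.74 and 1.64 with offsets of 0.1 and 0.5 FPKM, 1.27 after median-ratio scaling and 1.23 after quantile normalization, and between 1.22 and 1.62 when single libraries were left out. The count of called members, 18 as reported, was 4 with no filter on low values, beside 3.09% of all tested genes called. It was between 2 and 24 when single libraries were left out, beside between 1.55% and 17.4%. For BDL plus senkyunolide A set against BDL, the count was between 0 and 3, beside at most 0.627%, when single libraries were left out. The median was then between -0.060 and 0.78. For BDL plus senkyunolide A set against sham, the count of 8 was 16 and 13 with offsets of 0.1 and 0.5 FPKM, and 0 with no filter. It was 5 after median-ratio scaling, 3 after quantile normalization and 2 when only those 2 groups were fitted. In the same order, 4.23%, 3.6%, 0.0179%, 1.33%, 1.06% and 0.607% of all tested genes were called. When single libraries were left out the count was between 0 and 30, beside between 0% and 18.3%, and the median was between 1.13 and 1.86.

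Resident minus monocyte and lipid-associated was -0.33 in BDL against sham as reported. It was -1.28 and -0.69 with offsets of 0.1 and 0.5 FPKM, -0.42 and -0.25 under the 2 scalings, and between -0.89 without Marco and -0.016 without Gpnmb with 1 gene left out. For BDL plus senkyunolide A set against sham it was -1.24 and -0.64 with offsets of 0.1 and 0.5 FPKM, -0.75 without Marco, -0.56 without Ly6c2 and 0.053 without Trem2. With single libraries left out it was between -0.79 and -0.057 for BDL set against sham, between -0.20 and 0.53 for senkyunolide A set against BDL alone, and between -0.43 and -0.13 for senkyunolide A set against sham. The cause of these shifts was not tested.

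Library numbers showed no consistent pairing of the samples. Of 9 same-number pairs 3 had a correlation of deviations over 0.1, with r between -0.385 and 0.250. With 3 libraries per group this cannot settle whether samples were paired. With the replicate number as a block, 17 members were called for BDL set against sham, 0 for senkyunolide A set against BDL alone and 14 for senkyunolide A set against sham. The shares of all tested genes called were 8.92%, 0% and 3.78%. For single members over the alternatives, 508 fits kept their side of the threshold for BDL set against sham, 94 lost the call and 20 gained one; the numbers were 619, 0 and 3 for senkyunolide A set against BDL alone and 513, 66 and 43 for senkyunolide A set against sham. No called member changed direction. Members under 1 FPKM in sham rest on few fragments.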

Other observations

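Some proportions between members differed among libraries of a group, and they were noticed after the values were seen, with no test. Gpnmb was 0.873, 0.314 and 0.258 times Trem2 in BDL plus senkyunolide A, 1.52, 1.46 and 0.292 times in BDL and 0.666, 0.428 and 0.584 times in sham, so the last BDL library lay near the lower values of BDL plus senkyunolide A. Itgam was 0.0815, 0.351 and 0.382 times Itgb2 in BDL plus senkyunolide A, 0.248, 0.155 and 0.139 times in BDL and 0.0746, 0.0487 and 0.0783 times in sham, so the first library of BDL plus senkyunolide A lay near sham.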
